A study of Homo sapiens with 24 samples.

Results

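CTPS2 and CTPS1 encode CTP synthases, and together with 8 other genes of pyrimidine nucleotide synthesis they were followed through every library of the series. The 10 genes, CAD, DHODH, UMPS, CMPK1, CTPS1, CTPS2, UCK1, UCK2, UCKL1 and CDA, were taken by symbol from the 60563 named genes of the count table, and all 10 passed the filter on low counts that 18295 genes passed. CTPS2 was chosen by its rise against control in all 5 cell lines, and the other genes because they belong to the same pathway. Values of CTPS2 against control are therefore a description and carry no test.

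RNA was sequenced from H1299 cells, a p53 null non-small cell lung cancer line, that carried a vector only, and from 5 stable clonal H1299 cell lines expressing from a plasmid an isoform of p53. The Δ133p53α cell lines are numbered Δ133p53α1, Δ133p53α2 and Δ133p53α8, and the Δ133p53β cell lines Δ133p53β10 and Δ133p53β5. Both are isoforms that lack the N-terminal part of the protein. Each group had 4 libraries except Δ133p53β5, with 3. One further Δ133p53β library is named as Δ133p53β5 in the counts and as Δ133p53β10 in its label, so it entered no group. Where its values are given, they stand apart or within the range of all clone libraries. Each cell line is a single clone, so an effect of the isoform and a property of the clone cannot be told apart, and nothing states that libraries came from separate cultures, so p-values measure only the spread between libraries. All cell lines share the vector control, so the 5 comparisons with control are not independent of each other. A property of the control cells and a change shared by the clones also cannot be told apart.

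Pyrimidine nucleotides are made along a de novo route and recovered along a salvage route. In the de novo route, CAD carries out the opening steps from glutamine and aspartate, DHODH oxidizes dihydroorotate at the inner mitochondrial membrane, and UMPS makes UMP. CMPK1 phosphorylates UMP and CMP, and after a further phosphorylation to UTP the CTP synthases CTPS1 and CTPS2 transfer an amino group from glutamine to UTP to give CTP, which is used for nucleic acids, phospholipids and the activation of sialic acid. In the salvage route, UCK1 and UCK2 phosphorylate uridine and cytidine, UCKL1 is a relative of these kinases, and CDA deaminates cytidine to uridine.

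Total counts per library ranged from 21531599 to 25381731. Levels are given as CPM, read counts scaled to library size with edgeR's TMM factors. Where groups are said not to overlap, the share of all tested genes without overlap was not computed. Of the epithelial markers, KRT8 and KRT18 were abundant, whereas EPCAM and CDH1 did not exceed 5 and 1 counts. The sum of the 5 epithelial markers was 895 to 1670 CPM in control libraries and 1866 to 7535 in clone libraries, and its part in the results was not tested. Of the mesenchymal markers, VIM was abundant in every library, and the sum of the 3 was 2822 to 5035 CPM in control and 1798 to 5087 in clone libraries. The leukocyte markers PTPRC and CD3E and the fibroblast marker LUM had 0 counts in all 24 libraries, and the summed leukocyte, endothelial and fibroblast markers stayed at or below 2.29, 0.949 and 2.84 CPM. The libraries also fell into sets of 12 and 12 by the sign of the rank correlation between gene length and a gene's deviation from its mean, here the positive and the negative set, and each group had libraries in both.

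CTPS2 lies on the minus strand of chromosome X (hg38, 16587999 to 16712936) and CTPS1 on the plus strand of chromosome 1 (40979300 to 41012565). CTPS2 was almost absent from control libraries and present in every clone library. The 4 control libraries held 0, 0, 2 and 1 counts. The Δ133p53α1 libraries held 101 to 160 counts, the Δ133p53α2 libraries 139, 153, 239 and 261, and the Δ133p53α8 libraries 135, 181, 168 and 168. The Δ133p53β5 libraries held 133, 137 and 127 counts, the Δ133p53β10 libraries 150, 113, 73 and 221, and the library of unsettled line 155. The lowest clone library, Δ133p53β10 replicate 3, thus held 73 counts against at most 2 in control, and the groups did not overlap. In bulk RNA, fewer cells with a transcript and less of it per cell cannot be told apart.

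**Figure D1:**
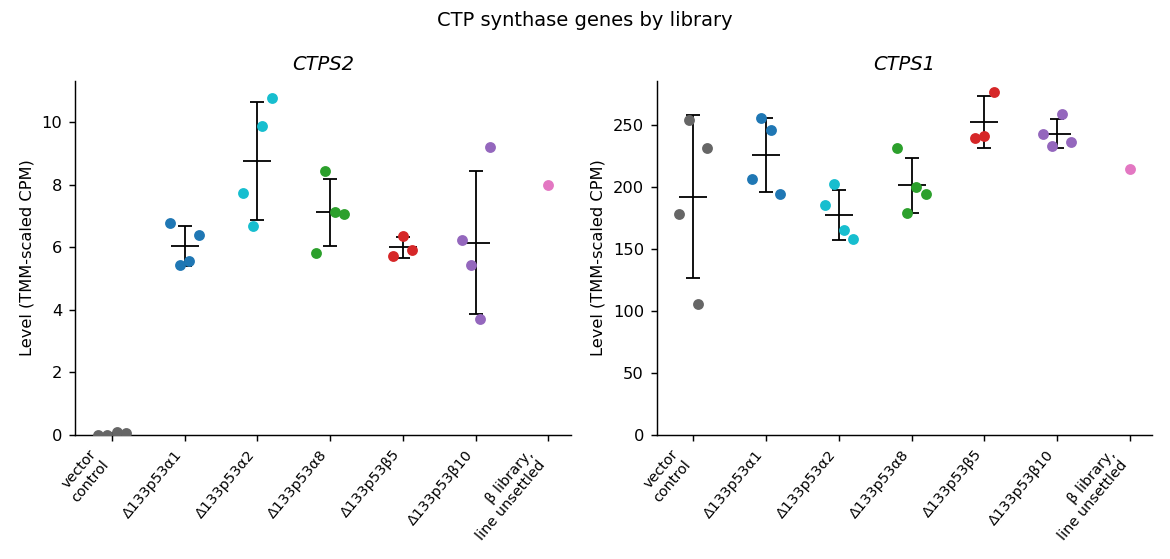
CTPS2 (left) and CTPS1 (right) in TMM-scaled CPM for each of 24 libraries, with 1 point per library and black bars for the mean and SD of a group. CTPS2 sits at 0 to 0.0766 CPM in control and 3.72 to 10.8 CPM in the clone libraries, whereas CTPS1 ranges overlap between control and clones.

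In CPM, CTPS2 was highest in Δ133p53α2, at 8.76 ± 1.88 (SD, n = 4). Then came Δ133p53α8 at 7.11 ± 1.07 (n = 4), Δ133p53β10 at 6.14 ± 2.29 (n = 4), Δ133p53α1 at 6.03 ± 0.651 (n = 4) and Δ133p53β5 at 5.99 ± 0.324 (n = 3). The library of unsettled line was at 7.97. Each neighbour in this order overlapped the next in range. All control libraries lie at or below 3 counts, about the most that a count of 0 allows per library. Each fold was taken against that floor, which averaged 0.123 CPM, and so is a lower bound on the fold over the observed control levels. CTPS2 was at least 71.3-fold higher in Δ133p53α2, 57.9-fold in Δ133p53α8, 49.998-fold in Δ133p53β10, 49.1-fold in Δ133p53α1 and 48.7-fold in Δ133p53β5. These bounds cover counting error in control libraries with 0 counts only, and leave out the spread between libraries of a cell line.

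Between the clones, which the choice of CTPS2 did not use, no difference in CTPS2 passed the threshold of edgeR's quasi-likelihood test after Benjamini-Hochberg adjustment over all 18295 genes. The mean of the Δ133p53β cell lines was lower than that of the Δ133p53α cell lines by a log2 difference of -0.25 (SE 0.20, 95% interval -0.66 to 0.16, adjusted p = 0.603). Δ133p53α2 differed from Δ133p53α1 by 0.54 (interval -0.06 to 1.14, adjusted p = 0.367), and Δ133p53β10 from Δ133p53β5 by 0.04 (interval -0.61 to 0.68, adjusted p = 0.991). A p above the threshold does not show that the clones had equal levels.

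CTPS1, the other CTP synthase, was abundant in every library, and each cell line overlapped control. The control libraries held 178, 253, 105 and 231 CPM, of which replicate 3 was the lowest of all 24 libraries. The library of unsettled line held 214 CPM, below every settled Δ133p53β library. The 12 Δ133p53α libraries ranged from 157 to 255 CPM with a median of 197, and the 7 settled Δ133p53β libraries from 233 to 277 with a median of 241. Control spanned most of this range, and the log2 fold change against control lay between -0.11 in Δ133p53α2 and 0.40 in Δ133p53β5. Between the isoforms, CTPS1 was higher in the Δ133p53β mean by 0.31 (SE 0.13, interval 0.03 to 0.58), which did not pass after adjustment (edgeR, adjusted p = 0.242).

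Per kilobase of the canonical transcript (3953 bases for CTPS2 and 2840 for CTPS1), CTPS2 made up the smaller share of the CTP synthase transcripts. The share depends on the length chosen, and with the union of all exons, an alternative added after seeing the data, the mean was 5.58%, 9.82%, 7.22%, 4.90% and 5.21% in Δ133p53α1, Δ133p53α2, Δ133p53α8, Δ133p53β5 and Δ133p53β10. The values that follow use the canonical transcript. Its share was 0 to 0.0522% in control libraries. It was 1.93% ± 0.439 in Δ133p53α1, 3.51% ± 1.08 in Δ133p53α2 and 2.53% ± 0.614 in Δ133p53α8 (SD, n = 4 each), and 1.68% ± 0.170 in Δ133p53β5 (n = 3) and 1.80% ± 0.703 in Δ133p53β10 (n = 4). The Δ133p53β library of unsettled line was at 2.61%. The summed level of both genes was 37.2 to 89.3 CPM per kilobase in control and 58.2 to 98.9 in the clones, so the level of CTPS2 in the clones was small beside the spread of CTPS1. The mean share was 1.75% over 7 Δ133p53β libraries and 2.65% over 12 Δ133p53α libraries. That difference, -0.90 percentage points, passed an exact two-sided permutation test over libraries (p = 0.0327, 50388 splits) but not over clone means (exact p = 0.2, where 2 against 3 clones cannot go below 0.1). The library-level p rose to 0.0521 and 0.0742 without Δ133p53β10 replicates 2 and 3, where the difference was -0.89 and -0.78, and to 0.0512 and 0.0576 without Δ133p53β5 replicates 1 and 3, where it was -0.89 and -0.86.

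Within the clones, libraries with more CTPS2 had less CTPS1. Over the 19 libraries of settled cell lines, Pearson's r of their log2 CPM was -0.78 (permutation p = 9e-05, Benjamini-Hochberg adjusted over 9 genes 0.00081) and Spearman's rho -0.81 (permutation p = 2e-05). The r was -0.71 without the 2 libraries farthest from the median of CTPS2, -0.96 in the 9 libraries of the positive set, -0.60 in the 10 of the negative set, and -0.64 after each cell line's mean was subtracted. This relation was noticed in the data and then tested on the same libraries, and libraries of 1 clone are not independent clones. The permutations here moved libraries freely across cell lines and library sets, so their p-values account for neither. Of the 9 genes, 5 passed the adjusted threshold for Pearson's r with CTPS2, all with a negative r: CTPS1, CDA, DHODH, UCK2 and UMPS. The share of all tested genes that would pass the same test with CTPS2 was not computed. The count of 5 is therefore a description and no trait of the pathway. After each cell line's mean was subtracted, r was -0.58 for CDA, -0.72 for DHODH, -0.52 for UCK2 and -0.36 for UMPS. For CDA r was -0.69 and rho -0.60 (adjusted permutation p = 0.00581 and permutation p = 0.00791), and r ran from -0.23 in the positive set to -0.85 in the negative set. For DHODH r was -0.60 and rho -0.61 (adjusted permutation p = 0.0135 and permutation p = 0.00659), and r was -0.41 without the 2 farthest libraries, -0.31 in the positive set and -0.68 in the negative set. For UCK2 r was -0.63 and rho -0.51 (adjusted permutation p = 0.0135 and permutation p = 0.0257), and r was -0.40 without the 2 farthest libraries, -0.78 in the positive set and -0.48 in the negative set. For UMPS r was -0.52 and rho -0.62 (adjusted permutation p = 0.04 and permutation p = 0.00546), and r was -0.66 without the 2 farthest libraries, -0.82 in the positive set and -0.23 in the negative set.

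**Figure D2:**
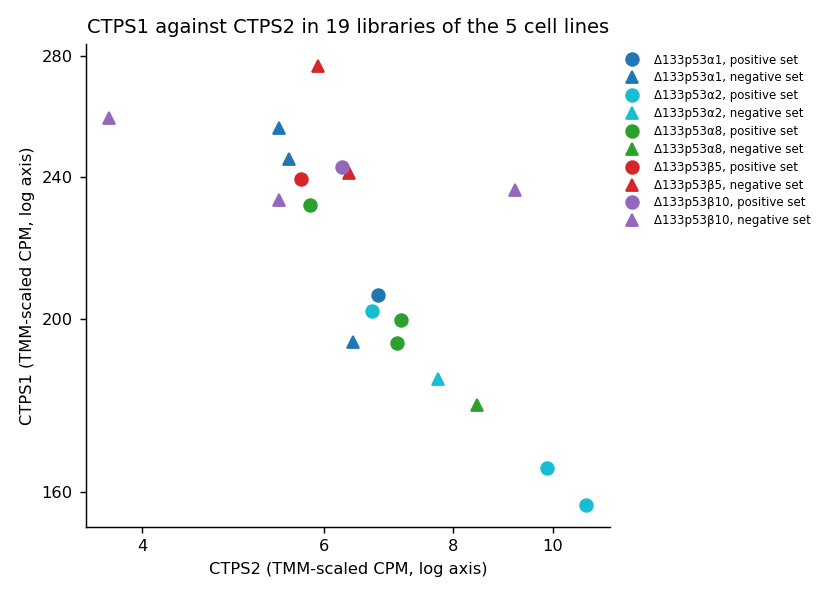
CTPS1 against CTPS2, both in TMM-scaled CPM on log2 axes, with 1 point for each of the 19 libraries of settled cell lines, coloured by cell line and shaped by library set. Points run from high CTPS1 and low CTPS2 to the reverse (r = -0.78), with 3 of 4 Δ133p53β10 libraries and all Δ133p53β5 libraries between 233 and 277 CPM of CTPS1 at 3.72 to 6.34 CPM of CTPS2.

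Apart from CTPS2, few of the genes moved beyond the spread between libraries when each cell line was compared with control. Calls required an edgeR adjusted p under 0.05 together with a log2 fold change of 1.5 or more, up or down. In Δ133p53α1, 2 of 10 were called, CTPS2 and CDA, against 2.58% of all tested genes. In Δ133p53α2, only CTPS2 was called (1 of 10, against 2.81%), as in Δ133p53α8 (1 of 10, against 2.53%). In Δ133p53β5 and Δ133p53β10, CTPS2 and CDA were called (2 of 10 each, against 4.27% and 4.73%). All calls were upward. CTPS2 was chosen by this rise, and CDA reached the level of the filter only in clone libraries, so these counts are a description and no support for a change in the pathway. The median log2 fold change over the 10 genes was 0.29, 0.05, 0.11, 0.34 and 0.20 in Δ133p53α1, Δ133p53α2, Δ133p53α8, Δ133p53β5 and Δ133p53β10, beside -0.08, 0.01, -0.02, -0.03 and -0.05 over all tested genes.

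**Figure D3:**
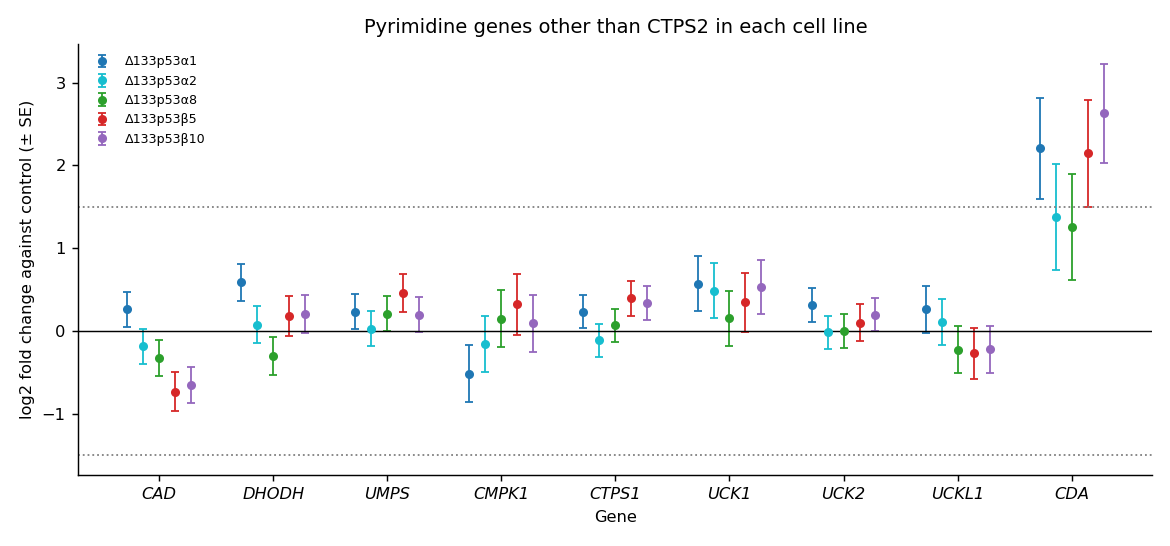
The log2 fold change against control (edgeR, points, with bars for 1 SE) of the 9 genes other than CTPS2 in each cell line, with dotted lines at 1.5 in either direction. Only CDA reaches past 1.5, in Δ133p53α1, Δ133p53β5 and Δ133p53β10, and CAD is lowest in the Δ133p53β cell lines, at -0.73 and -0.65.

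CAD, the first enzyme of the de novo route, was the only one of the 10 genes to pass the adjusted p between the isoforms. Control libraries held 177, 327, 199 and 317 CPM. The 4 Δ133p53α1 libraries held 362, 284, 283 and 294 CPM, the Δ133p53α2 libraries 211, 285, 221 and 181, and the Δ133p53α8 libraries 259, 190, 168 and 196. The Δ133p53β5 libraries held 183, 161 and 117 CPM, the Δ133p53β10 libraries 184, 156, 170 and 140, and the library of unsettled line 176. Δ133p53α1 stood highest, and the highest Δ133p53β library lay above only 2 of the 12 Δ133p53α libraries. CAD was lower in the mean of the Δ133p53β cell lines than in that of the Δ133p53α cell lines by a log2 difference of -0.61 (SE 0.15, interval -0.92 to -0.30), which passed the adjusted threshold (edgeR, adjusted p = 0.0175) but not the fold threshold. It was 1 of 10 genes to pass the adjusted p alone, against 4.76% of all genes, while 0 of 10 passed with the fold, against 1.39%. DESeq2 and limma voom each also passed 1 of the 10 on the adjusted p alone, and edgeR had 3 of 10 at an unadjusted p under 0.05. Within the positive set the difference was -0.34 (2 against 7 libraries) and within the negative set -0.75 (5 against 5), where the highest Δ133p53β library at 170 CPM lay below the lowest Δ133p53α library at 190. Without Δ133p53β5 replicate 3 the difference was -0.52 and no longer passed (adjusted p = 0.0931). Against control, the log2 fold change of CAD was -0.73 in Δ133p53β5 and -0.65 in Δ133p53β10, 0.26 in Δ133p53α1, -0.19 in Δ133p53α2 and -0.33 in Δ133p53α8, and none was called.

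DHODH, the mitochondrial enzyme of the route, was highest in Δ133p53α1 and lowest in Δ133p53α8 among the clones. The Δ133p53α1 libraries held 31.5, 44.9, 49.2 and 43.9 CPM and the Δ133p53α8 libraries 25.6, 23.5, 22.03 and 20.1, so the groups did not overlap. Control libraries held 29.8, 30.2, 20.003 and 32.7 CPM. Δ133p53α8 was below Δ133p53α1 by a log2 difference of -0.89 (SE 0.23, interval -1.37 to -0.42), which did not pass in edgeR (adjusted p = 0.0703) and passed in DESeq2 (adjusted p = 0.0104). DHODH was lower in the positive set of clone libraries by -0.49 on the log2 scale, and 1 of 4 Δ133p53α1 and 3 of 4 Δ133p53α8 libraries belonged to it. With the set as a term the difference was -0.71 and did not pass (edgeR, adjusted p = 0.0927). The difference passed in edgeR without Δ133p53α1 replicate 1 (-1.04), Δ133p53α2 replicate 1 (-0.91) or Δ133p53β10 replicate 3 (-0.91).

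**Figure D4:**
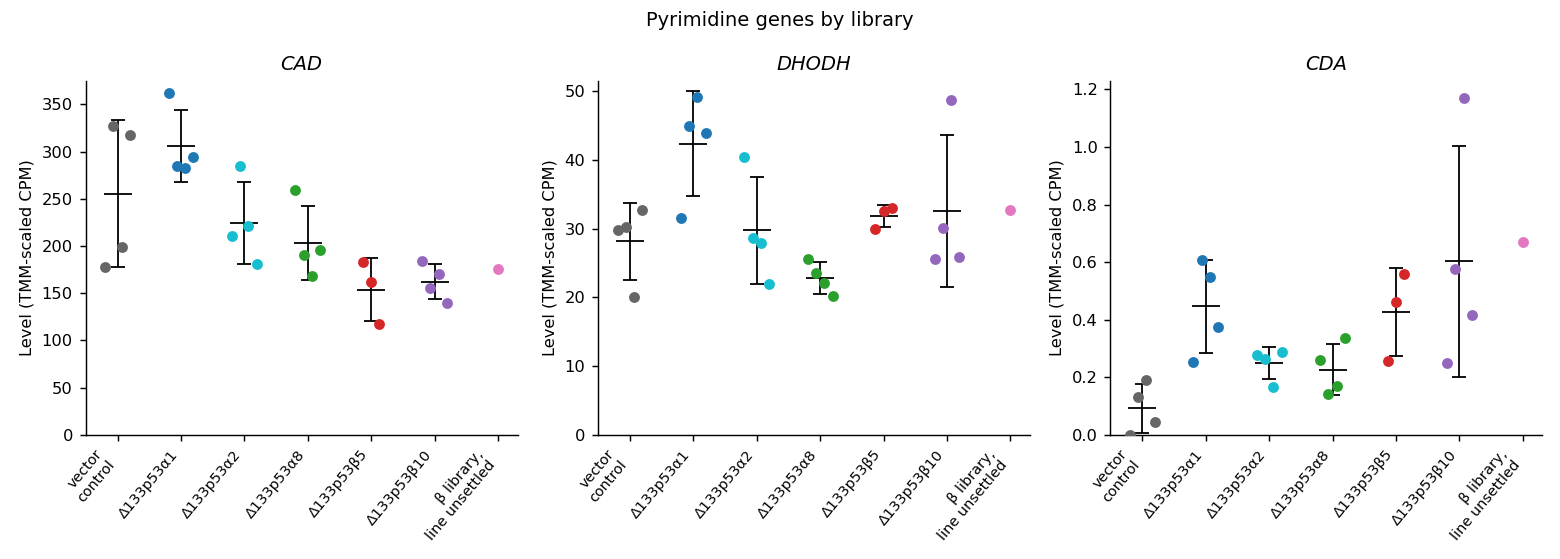
CAD, DHODH and CDA in TMM-scaled CPM for each of 24 libraries, with 1 point per library and black bars for the mean and SD of a group. CAD lies at or below 184 CPM in every Δ133p53β library, DHODH is highest in Δ133p53α1, and CDA stays below 1.2 CPM throughout.

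UMPS, which completes UMP, stayed close to control. Its mean was 74.1 ± 26.0 CPM in control, where replicate 3 held 35.8 and the other libraries 80.2 to 91.5. The 20 clone libraries ranged from 63.3 to 112 CPM with a median of 84.2, and the log2 fold change against control lay between 0.02 in Δ133p53α2 and 0.46 in Δ133p53β5. CMPK1, the UMP and CMP kinase, varied more within cell lines than the other genes with substantial counts. Its within-line SD was 0.53 on the log2 scale, against 0.49 for UCK1, 0.40 for UCKL1 and 0.27 for CTPS1. Δ133p53β10 alone spanned 38.2 to 138 CPM and Δ133p53α2 40.1 to 102. Among the 19 clone libraries of settled cell lines its mean was 0.68 higher on the log2 scale in the positive than in the negative set, and the part of this in its differences between cell lines was not tested.

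The salvage kinases did not pass in any cell line. UCK2 ranged from 91.7 to 157 CPM in control and 86.6 to 181 in the 20 clone libraries. UCK1 ranged from 24.03 to 43.8 CPM in control and 26.5 to 80.2 in the clones, and UCKL1 from 29.7 to 45.3 and 21.9 to 64.3. Over the 5 cell lines the log2 fold change against control lay between -0.02 and 0.31 for UCK2, 0.15 and 0.57 for UCK1, and -0.27 and 0.26 for UCKL1. UCK1 and UCKL1 moved with the library set in the direction opposite to CMPK1, being lower in the positive set by -0.76 and -0.59 on the log2 scale.

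CDA, the cytidine deaminase, was near the limit of detection. Control libraries held 0, 3, 5 and 1 counts, and the 20 clone libraries 3 to 23. The Δ133p53β10 libraries held 6, 12, 23 and 10 counts, the Δ133p53β5 libraries 6, 10 and 12, and the Δ133p53α1 libraries 6, 12, 10 and 7. The Δ133p53α2 libraries held 5, 6, 4 and 7 counts and the Δ133p53α8 libraries 6, 3, 4 and 8, so these lines overlapped control, whereas the other 3 lines, each with at least 6 counts, did not. Over the clone libraries CDA was lower in the positive than in the negative set by -0.72 on the log2 scale, and of those 3 lines Δ133p53α1 and Δ133p53β10 had 3 of 4 and Δ133p53β5 had 2 of 3 libraries in the negative set, against 1 of 4 in control, Δ133p53α2 and Δ133p53α8. With the set as a term the log2 fold change was 1.96 in Δ133p53α1, which no longer passed, 1.93 in Δ133p53β5 and 2.36 in Δ133p53β10, which did. The fitted log2 fold change was 2.63 ± 0.60 (SE) in Δ133p53β10, 2.21 ± 0.61 in Δ133p53α1, 2.15 ± 0.64 in Δ133p53β5, 1.38 ± 0.64 in Δ133p53α2 and 1.26 ± 0.64 in Δ133p53α8. The call in Δ133p53α1 was lost without any 1 of Δ133p53α1 replicates 2, 3 and 4, Δ133p53β10 replicate 2, Δ133p53β5 replicate 2 and control replicates 1, 2 and 4, where the log2 fold change was 1.80 to 2.43. In Δ133p53β5 it was lost without any 1 of 13 libraries: Δ133p53α1 replicates 2, 3 and 4, Δ133p53α2 replicates 2 and 4, Δ133p53α8 replicates 1 and 3, Δ133p53β10 replicate 2, Δ133p53β5 replicates 2 and 3 and control replicates 1, 2 and 4, with values of 1.74 to 2.35. The call in Δ133p53β10 held without each of 23 libraries in turn. Because CDA reached the level of the filter only in clone libraries, these folds and calls against control are a description. At this depth CDA in control was not distinguishable from a count of 0 in 3 of the 4 libraries. Between the isoforms, the Δ133p53β mean was higher by 0.77 (interval 0.03 to 1.52, edgeR adjusted p = 0.275), which did not pass.

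Between clones of the same isoform none of the 10 genes passed the adjusted p in edgeR. In Δ133p53α2 against Δ133p53α1 it was 0 of 10, against 0.803% of all genes, with 2 genes at an unadjusted p under 0.05 and 0 by DESeq2 and by voom. In Δ133p53α8 against Δ133p53α1 it was 0 of 10, against 0.738%, with 2 at an unadjusted p under 0.05, 1 by DESeq2 and 0 by voom. In Δ133p53α8 against Δ133p53α2 it was 0 of 10, against 0.137%, and in Δ133p53β10 against Δ133p53β5 it was 0 of 10, against 0%, with 0 at an unadjusted p under 0.05 and 0 by the other tools in both.

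The wider pathway was described by lists drawn up with earlier results of these data known. On the adjusted p alone, 4.83%, 5.28%, 4.51%, 8.03% and 9.81% of all genes passed in Δ133p53α1, Δ133p53α2, Δ133p53α8, Δ133p53β5 and Δ133p53β10 against control. Of 19 genes for pyrimidine interconversion and deoxynucleotide supply, 18 were tested, and the count that passed was 0, 0, 0, 1 and 1 in the same order. That gene was NME6, a member of the nucleoside diphosphate kinase family, higher by 0.92 and 1.28 (log2). It was at 23.6 to 29.4 CPM in control and 39.8 to 94.4 in the 7 settled Δ133p53β libraries. The 12 Δ133p53α libraries held 26.8 to 61.8 CPM. In Δ133p53β5 it did not pass without any 1 of 11 libraries, among them all 3 Δ133p53β5 libraries and all 4 control libraries, with values of 0.86 to 1.04, while in Δ133p53β10 it passed without each library in turn. RRM2, the small subunit of ribonucleotide reductase, spanned 119 to 389 CPM in control and 281 to 445 in the settled clones and did not pass.

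Of 20 genes for uptake and breakdown of pyrimidine nucleosides, 14 were tested and 1 was called against control, in Δ133p53α2, where 2.81% of all tested genes were called. This was UPP1, uridine phosphorylase, with 289, 26.1, 165 and 29.7 CPM in the Δ133p53α2 libraries beside 19.4, 13.6, 49.3 and 14.8 in control, a log2 fold change of 2.39 ± 0.63 (SE). Its call rested on replicates 1 and 3, which were high, while replicates 2 and 4 lay inside the control range. It was lost without Δ133p53α2 replicates 1 (1.61) or 3 (2.30) or control replicates 1 (2.30), 2 (2.24) or 4 (2.26), with limma voom (1.88) and in a pairwise fit (2.42). Between the isoforms, SLC29A3, an equilibrative nucleoside transporter of intracellular membranes, was lower in the Δ133p53β mean by a log2 difference of -1.96 (SE 0.40, interval -2.80 to -1.12, edgeR adjusted p = 0.00507). It was 1 of 14 tested genes of this list to pass, against 4.76% of all genes on the adjusted p alone and 1.39% with the fold. It was at 0.742 to 3.62 CPM in the 12 Δ133p53α libraries and 0.0416 to 0.916 in the 7 Δ133p53β libraries. Control libraries lay at 0.426 to 0.783 CPM, and the Δ133p53β library of unsettled line at 1.08, within the Δ133p53α range.

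Of 6 enzymes that consume CTP for phospholipids or sialic acid, 5 were tested. Only CDS1, a CDP-diacylglycerol synthase, passed the adjusted p, in Δ133p53α2 (1.36 on the log2 scale) and Δ133p53α8 (1.44), and none was called. CDS1 was low, at 0.814 to 1.17 CPM in control and 1.42 to 3.06 in the 12 Δ133p53α libraries, which did not overlap.

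All 15 genes of purine synthesis were tested as a neighbouring pathway, and 0, 1, 1, 3 and 1 passed upward on the adjusted p in Δ133p53α1, Δ133p53α2, Δ133p53α8, Δ133p53β5 and Δ133p53β10. These were PRPS1 and PRPS2, which make the sugar phosphate shared by purine and pyrimidine synthesis, and HPRT1, which salvages purine bases, and all 3 genes lie on chromosome X. PRPS1 passed in Δ133p53β5 (1.04) and Δ133p53β10 (0.92), PRPS2 in Δ133p53α2 (0.79), Δ133p53α8 (0.95) and Δ133p53β5 (0.95), and HPRT1 in Δ133p53β5 (0.99). The median log2 fold change of the 583 tested genes on chromosome X was 0.27 in Δ133p53β5 and 0.20 in Δ133p53β10, and -0.09, 0.02 and 0.08 in Δ133p53α1, Δ133p53α2 and Δ133p53α8. Without Δ133p53β5 replicate 3, PRPS1 (0.95), PRPS2 (0.88) and HPRT1 (0.84) no longer passed in Δ133p53β5, without Δ133p53β10 replicate 4 PRPS1 (0.82) no longer passed in Δ133p53β10, and without any 1 of 7 libraries PRPS2 (0.63 to 0.80) no longer passed in Δ133p53α2. Those 7 were Δ133p53α1 replicate 2, Δ133p53α2 replicates 2, 3 and 4, Δ133p53β5 replicate 2 and control replicates 1 and 3.

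ADSS1, an adenylosuccinate synthase of the route to AMP, was the purine gene that was called downward, by -1.58 in Δ133p53β5 and -1.55 in Δ133p53β10. This is 1 of 15 genes in each line, where 4.27% and 4.73% of all tested genes were called in either direction. It was at 10.2 to 27.4 CPM in control and 4.50 to 6.74 in the 7 settled Δ133p53β libraries, with no overlap, and at 6.25 to 23.5 in the Δ133p53α libraries. The Δ133p53β library of unsettled line was at 8.69 CPM. In Δ133p53β5 the adjusted p was lost without Δ133p53β5 replicate 1 (-1.43) or 3 (-1.66) or control replicate 3 (-1.25). In Δ133p53β10 the adjusted p held, but the fold threshold was missed without Δ133p53β10 replicate 1 (-1.45) or 2 (-1.48) or control replicate 1 (-1.48) or 3 (-1.18). With limma voom both lines missed it (-1.48 and -1.44), as they did when the unsettled library was counted in the line concerned (-1.39 and -1.38). Between the isoforms ADSS1 was lower in the Δ133p53β mean by -1.04 (edgeR adjusted p = 0.0123), whereas PRPS1 (0.62, edgeR adjusted p = 0.0229) and HPRT1 (0.59, edgeR adjusted p = 0.0181) were higher. Thus 1 of 15 purine genes passed downward and 2 upward on the adjusted p alone, against 4.76% of all genes in either direction.

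Genes near CTPS2 were examined because it was read almost only in the clones. Of 39 annotated genes within 1 Mb of either end of CTPS2, 16 were tested. Their median log2 fold change against control was 0.32, 0.76, 0.78, 0.59 and 0.45 in Δ133p53α1, Δ133p53α2, Δ133p53α8, Δ133p53β5 and Δ133p53β10, above the chromosome X and all-gene medians given earlier. On the adjusted p alone, 4.83%, 5.28%, 4.51%, 8.03% and 9.81% of all tested genes passed in the same order, in either direction. Of the 16 genes near CTPS2, 1, 5, 5, 4 and 2 passed, all upward, which is near that share in Δ133p53α1 and Δ133p53β10. NHS, which was at or below 3 counts in every control library and so passed the filter only through the clones, is 1 of these in 4 lines, and without it 1, 4, 4, 3 and 1 of 15 passed, with a median of 0.15, 0.76, 0.76, 0.51 and 0.44. SYAP1, which starts 6.68 kb from the CTPS2 start on the opposite strand, was at 33.6 to 44.3 CPM in control and 46.9 to 73.7 in all 20 clone libraries. These ranges did not overlap, and how many of all tested genes share this was not computed. SYAP1 passed in all 5 cell lines, with a log2 fold change of 0.49, 0.85, 0.76, 0.83 and 0.46 in the same order. S100G, which lies within CTPS2 on the opposite strand, had 0 counts in every library.

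**Figure D5:**
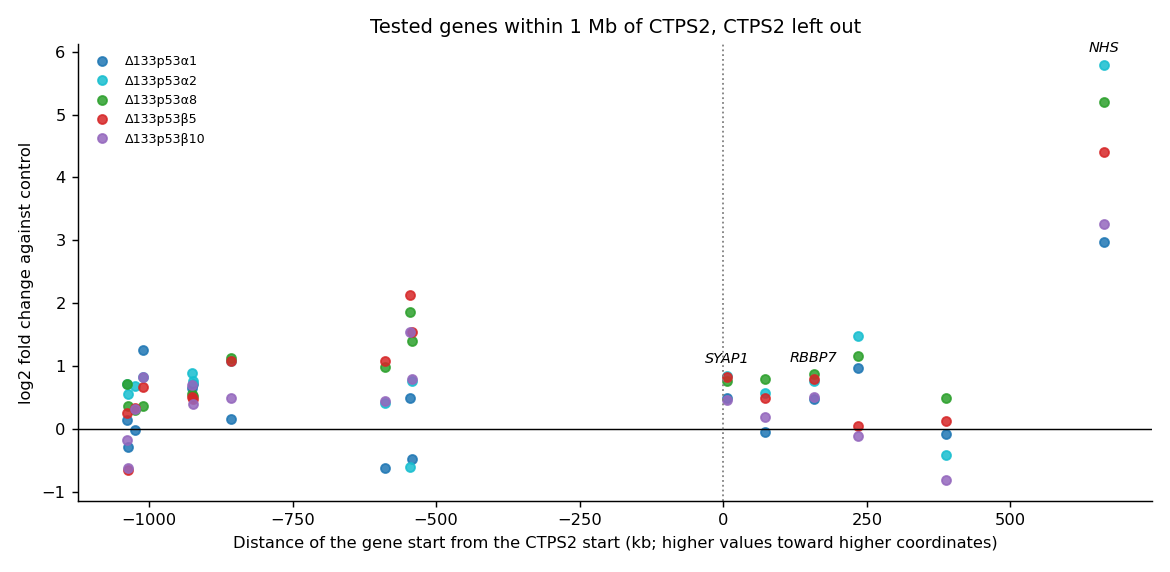
The log2 fold change against control (edgeR) of the 16 tested genes within 1 Mb of CTPS2 in each cell line, by the distance of the gene start from the CTPS2 start in kb. Most points lie above 0, SYAP1 lies at 0.46 to 0.85 beside CTPS2, and NHS reaches a fitted 5.79 over a control of 0 to 3 counts.

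The adjusted p of SYAP1 in Δ133p53α1 was lost without any 1 of Δ133p53α1 replicates 2, 3 and 4 and control replicates 2, 3 and 4 (0.47 to 0.53), and in Δ133p53β10 without Δ133p53β10 replicate 3 or control replicates 2, 3 and 4 (0.42 to 0.50). In both lines it was also lost with no filter and in pairwise fits (0.49 to 0.53). RBBP7, a histone-binding chromatin protein 157 kb away, was at 141 to 305 CPM in the clones and 153 ± 18.8 (SD, n = 4) in control, and passed in Δ133p53α2 (0.77), Δ133p53α8 (0.87) and Δ133p53β5 (0.80, lost without Δ133p53β5 replicate 3 at 0.74). The other tested genes whose nearest end lies within 500 kb were TXLNG (log2 fold change -0.04 to 0.80), REPS2 (-0.11 to 1.49), GRPR (-0.62 to 1.08), MAGEB17 (-0.60 to 2.13) and 2 others, ENSG00000238178 (-0.48 to 1.54) and CBX1P2 (-0.81 to 0.49). REPS2 passed in Δ133p53α2 and in Δ133p53α8 (1.16, lost without Δ133p53α8 replicate 2 or 3 or control replicate 1, 2 or 4 at 1.00 to 1.13). Beyond 500 kb, AP1S2 passed in Δ133p53α2, Δ133p53α8 and Δ133p53β5 (1.08 to 1.12), lost in each without any 1 of several libraries, all 4 control libraries among them (0.98 to 1.19), and NHS was past both thresholds in every cell line but Δ133p53α1, a description given its control level. NHS, which starts 662 kb away, had 0 to 3 counts in control and 2 to 106 in the clones, and its call in Δ133p53β10 was lost without Δ133p53β10 replicate 1 or control replicate 1, 2 or 4. AP1S2 and NHS were singled out after their values were seen.

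Across the 23 libraries of settled groups, the 5 genes whose log2 CPM was most like that of CTPS2 by Pearson's r were ZNF22 (0.978), NR0B1 (0.962), SPECC1 (0.952), ANXA3 (0.950) and NRN1 (0.950). Those most opposite were ENSG00000232111 (-0.989), LDHAL6FP (-0.984), RIPK4 (-0.983), ADPRH (-0.982) and SPATC1 (-0.980). These r values are descriptions, and their points share the contrast between control and clones. NR0B1, on chromosome X like CTPS2, had 1 to 3 counts in control and 98 to 273 in the clones. RIPK4 showed the reverse, with 39 to 114 counts in control and 0 in every clone library. CTPS2 was 1 of 16 genes that had at most 3 counts in each control library and were called upward in all 5 cell lines, and had the second highest mean CPM of these in the clones, after NR0B1. Of all tested genes, 60 had that control level and 59 were called upward in all 5 cell lines. Genes at that control level passed the filter only through the clones, and CTPS2 was chosen by its rise, so this is a description.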

How the data were processed

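Poly(A) RNA of 24 libraries was sequenced on a DNBSEQ platform with a strand-specific protocol. According to the methods, the authors trimmed reads with Cutadapt, aligned them to GRCh38 (hg38) with HISAT2 and assigned them to Ensembl genes with featureCounts, and they deposited raw read counts per gene, without normalization. How reads with several alignments were treated is not given in the sources used here. The strand setting of the counting is also not given, which bears on genes that overlap on opposite strands. Columns of the table were matched to libraries by line and replicate number. One row without a name held 0 reads and was left out. The members and lists were chosen with earlier results of these data known.

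Tests used edgeR 4.0.16 in R 4.3.3 on the counts of 23 libraries: TMM factors, filterByExpr by group (18295 genes), a single quasi-likelihood model with 6 groups (17 residual df), and p-values adjusted by Benjamini-Hochberg across the 18295 genes. The fit was tested on simulated data. The study's methods name DESeq2's Wald test, which was an alternative here (DESeq2 1.42.0), as was voom in limma 3.58.1. Further settings were RLE factors, no filter, a mean of 1 CPM, the replicate number as a block, the library set as a term, pairwise fits, the unsettled library in either line, no fold threshold, and each library left out in turn. Log2 CPM for correlations used a prior count of 0.5 for the genes of the pathway and 2 for the search over all genes, and permutation tests used SciPy 1.17.1 and NumPy 2.4.6. Named genes were the 10 members, list genes called in a cell line or between isoforms, tested genes within 500 kb of CTPS2, and the 5 genes most like and most opposite to CTPS2. List and neighbouring genes that passed the adjusted p alone were named after their values were seen. Gene positions and lengths came from GENCODE v44 (hg38). Total counts per library ranged from 21531599 to 25381731. PCR reads carried no molecular identifiers, so bounds cover counting error in control libraries with 0 counts only. Within groups, 33 library pairs were tested for repeated libraries by chi-square, which was at least 17.2 times its df in each, so none was a repeat. A check of the labels by the transfected gene and the sequences upstream of the members are not reported here.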

Additional observations from a re-analysis of the deposited data

Results flagged for a closer look

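Among 50 groups of 4 libraries, each a member gene in 1 group, 2 held a library far from the others, where chance gives about 1 in 20. CAD was at 362 CPM in Δ133p53α1 replicate 1, beside 283 to 294 in the other libraries of that line. UCKL1 was at 64.3 CPM in Δ133p53α2 replicate 1, beside 27.0 to 32.3 in the others.

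The mean of the Δ133p53β cell lines differed from that of the Δ133p53α cell lines by a test of the difference itself in several genes. On the adjusted p alone, 1 of the 10 members passed, and 2 of 15 purine genes upward and 1 downward. Of the tested genes for interconversion, uptake and breakdown, and CTP use, 0 of 18, 1 of 14 and 0 of 5 passed. Beside these counts, 4.76% of all tested genes passed. Only 2 clones carried Δ133p53β and 3 carried Δ133p53α. The p-values for these genes measure the spread between libraries, and whether the isoforms differ across clones was not tested for them. The log2 difference of the Δ133p53β mean from the Δ133p53α mean was -0.61 for CAD, -1.96 for SLC29A3, 0.62 for PRPS1, -1.04 for ADSS1 and 0.59 for HPRT1 (edgeR, all adjusted p under 0.05). The adjusted p rose above 0.05 without Δ133p53β5 replicate 3 for CAD (-0.52), PRPS1 (0.57) and HPRT1 (0.51), without Δ133p53β5 replicate 1 for ADSS1 (-0.98), and without Δ133p53β10 replicate 2 (0.61) or 4 (0.57) for PRPS1. The share of CTPS2 in the CTP synthase transcripts differed by -0.90 percentage points over libraries (exact permutation p = 0.0327) and did not pass over clone means.

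The library of unsettled line, which entered no comparison, held 155 counts of CTPS2 (7.97 CPM), above the 0 to 2 counts of the control libraries.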

How the results depend on the processing

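The log2 difference of CTPS2 between isoforms passed under none of 10 other settings, and in none of 23 fits that left out 1 library. CAD between isoforms passed under all 10 settings (-0.62 to -0.52) and in 22 of 23 fits that left out 1 library. Counts of members called depended on CDA. In Δ133p53α1 the count of 2 fell to 1 with no filter, a mean of 1 CPM (which removed CDA), the library set as a term and pairwise fits, and ranged from 1 to 2 without 1 library. In Δ133p53β5 it fell to 1 with no filter, a mean of 1 CPM and pairwise fits, and ranged from 1 to 2 without 1 library. In Δ133p53β10 it fell to 1 with a mean of 1 CPM and pairwise fits, and stayed at 2 without each library. The filter of the pairwise fits against control also removed CDA, so CDA was not tested in them. Without the fold threshold the count between isoforms rose from 0 to 1, which was CAD. Against control, CAD passed in Δ133p53β5 with a mean of 1 CPM, DESeq2, the unsettled library in Δ133p53β5, the library set as a term and without control replicate 1, and in Δ133p53β10 with DESeq2, the unsettled library in Δ133p53β10 and without control replicate 1 (-0.87 to -0.59). The difference in CTPS2 share ranged from -1.07 to -0.72 percentage points without 1 library, with p of 0.0168 to 0.0742 (exact permutation). The other lengths for the share, raw counts and a union of exons, the latter added after seeing the data, did not move its p past the threshold, nor did the unsettled library.

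Same-numbered libraries of different lines had a median r of 0.01 between their deviations (55 pairs, range -0.88 to 0.89). Libraries with different numbers had a median r of -0.02 (165 pairs, range -0.83 to 0.86). The library sets were not removed first, so this check cannot exclude a smaller effect shared by replicate number. With the replicate number as a block, 2, 1, 1, 2 and 2 members were called in Δ133p53α1, Δ133p53α2, Δ133p53α8, Δ133p53β5 and Δ133p53β10, as without it, and 0 between isoforms. Over all genes in Δ133p53α1 the block gave 156 higher and 231 lower calls, beside 190 and 282 without it. The block ended the adjusted p of SYAP1 in Δ133p53α1 (0.49) and Δ133p53β10 (0.46), NHS in Δ133p53β10 (3.05), NME6 in Δ133p53β5 (0.84), PRPS2 in Δ133p53α2 (0.81) and AP1S2 in its 3 lines (1.10 to 1.15). Limma voom ended the adjusted p of NHS in Δ133p53β10 (2.81) and AP1S2 in Δ133p53α2 (1.02) and Δ133p53β5 (1.08). Pairwise fits ended it for RBBP7 (0.81), CDS1 (1.39), AP1S2 (1.12), PRPS2 (0.83) and REPS2 (1.51) in Δ133p53α2, PRPS2 (0.99) and REPS2 (1.17) in Δ133p53α8, and PRPS1 in Δ133p53β5 (1.03) and Δ133p53β10 (0.94). With no filter, NME6 in Δ133p53β5 (0.95), PRPS2 in Δ133p53α2 (0.82) and PRPS1 between isoforms (0.62) did not pass, nor, with a mean of 1 CPM, did NME6 (0.88) and AP1S2 (1.04) in Δ133p53β5, or AP1S2 there with the unsettled library (0.94). Counts over all genes moved by over 1.5 times in these cases. With a mean of 1 CPM they fell from 472, 514, 463, 782 and 866 against control (lines in the order above) to 269, 294, 274, 486 and 523, between isoforms from 254 to 125, and for Δ133p53α2 and Δ133p53α8 against Δ133p53α1 from 101 to 64 and from 95 to 55. In pairwise fits they fell to 295 in Δ133p53α2 and 429 in Δ133p53β10, and to 22 and 38 against Δ133p53α1, while DESeq2 gave 191 and 148. For Δ133p53α8 against Δ133p53α2 the count of 25 became 9 in pairwise fits, 15 with the block, 47 with the library set and 48 with DESeq2. At the depth of these libraries, genes at CDA's level had too few reads for a firm call.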
